A study of Mus musculus with 7 samples.

Results

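Skin of mice that ate glucosylceramide (GC) and had been treated with the detergent sodium dodecyl sulfate (SDS) was set against skin of mice on the control diet that had not yet been treated. The comparison asks which transcripts still departed from untreated control skin in a detergent-treated mouse that ate GC. It took the 4 GC-fed samples of the after-SDS arrays and the 3 control-fed samples of the before-SDS arrays, 7 of the 14 samples measured. GC-fed skin after SDS came from male HR-1 mice, a hairless strain, aged 5 weeks, on an AIN-93G rodent diet with GC for 14 days, whose right dorsal side received 10% SDS daily on 2 days. Control-fed skin before SDS came from male HR-1 mice of that age on AIN-93G without GC for 12 days, with no SDS. The groups thus differ in diet, in SDS, in 2 days of feeding and, since SDS was given last, in time. The other 7 samples, control-fed skin after SDS (n = 4) and GC-fed skin before SDS (n = 3), shared the arrays and entered the fit. The labels call the samples biological replicates without saying whether each was a single mouse or pooled RNA, and p-values measure the spread between these samples.

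GC is a ceramide that carries a sugar. Ceramides, cholesterol and fatty acids form the lipid layers between the dead cells of the stratum corneum, and maturing keratinocytes release the ceramides from glucosylceramide. SDS strips and disorders that barrier, and skin treated with it is known for keratinocyte proliferation and for inflammation. Dorsal skin also holds hair follicles, pigment cells, dermis, fat and a thin sheet of muscle, so its RNA is a mixture in which fewer cells of a type and less RNA per cell cannot be told apart.

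Each two-colour array held a GC-fed and a control-fed sample. Levels are log2 intensities after normalization, a fold change is the log2 level in GC-fed skin after SDS minus that in control-fed skin before SDS, and a gene is called where its limma p-value, adjusted by Benjamini and Hochberg over all 17080 genes, was under 0.05. The fit corrects for dye, so a fold change can differ slightly from the difference of the means. Krt5, Krt14, Krt1, Krt10, Lor and Flg, which define epidermis, were well above background in 14 of 14 samples. Of the spots of an array, 48.5% to 54.5% were well above background in green and 58.2% to 62.8% in red, and 0 were saturated. The number of arrays limits the precision. The before-SDS arrays lay on 1 slide with 1 scan date and the after-SDS arrays on another, 0 slides held both groups, and slide and group cannot be told apart in any comparison of after with before SDS.

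After-SDS array 4 went against the others. Its ratios of GC-fed over control-fed correlated across genes, which are not independent replicates, with those of after-SDS arrays 1, 2 and 3 at r = -0.58, -0.62 and -0.30, whereas arrays 1 to 3 correlated with each other at 0.33 to 0.60. The labelled direction was kept, and results that rest on this array are given with and without it. The calls also rest on single samples. Without before-SDS array 1, 6 genes were called, all lower in GC-fed skin after SDS, and 0 members of any gene list passed. The count was 856 without before-SDS array 2, 326 without before-SDS array 3 and 544 without after-SDS array 3.

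In all, 1709 of 17080 genes were called (10.0%), 847 higher (4.96%) and 862 lower (5.05%) in GC-fed skin after SDS. The groups did not overlap in 1610 of the called genes, and in 3912 of all genes (22.9%). The median absolute log2 fold change of called genes was 0.45, and 73 called genes exceeded 1, of which 45 were higher and 28 lower. Without after-SDS array 4, 2596 genes were called (15.2%), among them 1527 of the 1709 in the same direction. When a fit used only the 7 compared samples, 0 genes passed in limma (lowest adjusted p = 0.087), although 3855 had an unadjusted p under 0.05.

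**Figure D1:**
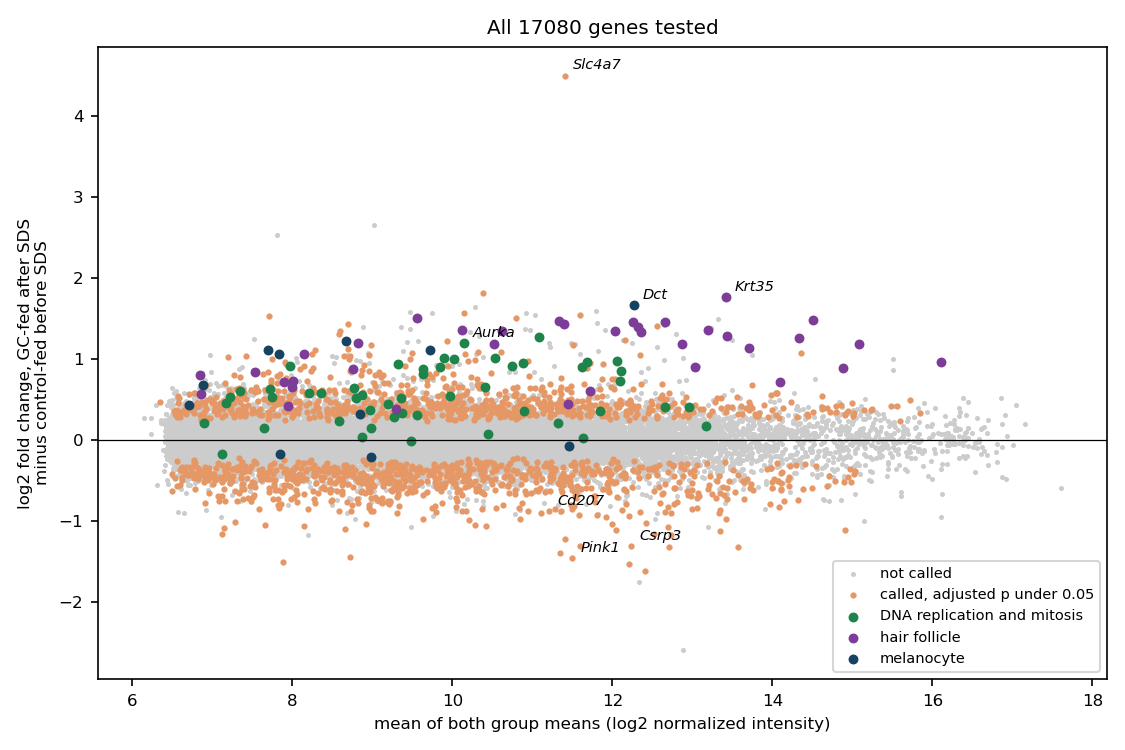
Log2 fold change of each of the 17080 genes (y axis, GC-fed after SDS minus control-fed before SDS) against the mean of both group means (x axis, log2 normalized intensity). Called genes are orange and genes not called grey, and members of the DNA replication and mitosis, hair follicle and melanocyte lists are coloured over both, with 36 of 36 hair follicle genes above 0.

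Genes of DNA replication and mitosis were higher in GC-fed skin after SDS. Of 50 measured members, 32 rose and 0 fell, a share of 64.0% against the 4.96% of all genes that were called higher, and the list's median log2 fold change was 0.53 against -0.01 over all genes. In the 4 GC-fed samples after SDS the list's median departure from the mean of control-fed skin before SDS was 0.68, 0.34, 0.68 and 0.34, and in the 3 control-fed samples before SDS it was -0.12, 0.16 and -0.03. Every GC-fed sample thus lay above every control-fed sample. Without after-SDS array 4, 33 members rose, where 7.39% of all genes did. Without before-SDS array 1, 2 or 3 the count was 0, 24 or 7, and the median was 0.47, 0.59 or 0.54.

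The mitotic kinase gene Aurka stood at 11.03, 10.78, 10.87 and 10.22 in GC-fed skin after SDS, against 9.30, 9.78 and 9.62 in control-fed skin before SDS. The groups did not overlap, and array 4 gave the lowest GC-fed value. Its log2 fold change was 1.20 (SE 0.15, limma adjusted p = 0.00352). Plk1, a kinase that drives entry into and passage through mitosis, had levels of 10.99, 10.27, 10.59 and 10.18 in GC-fed skin after SDS and 9.35, 9.77 and 9.52 in control-fed skin before SDS. It rose by 1.00 (SE 0.16, limma adjusted p = 0.00681), again with no overlap. Bub1, a kinase of the spindle checkpoint, was at 8.49, 8.32, 8.76 and 8.16 in GC-fed skin after SDS, against 7.48, 7.72 and 7.34 in control-fed skin before SDS, a fold change of 0.92 (SE 0.14, adjusted p = 0.00667). Cenpe, a motor protein of the kinetochore, rose by 1.26 (SE 0.19) by the brightest of its 3 probes, and its lowest probe gave 0.30.

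Mki67, the gene of the proliferation marker Ki-67, averaged 12.52 ± 0.42 in GC-fed skin after SDS (SD, n = 4) and 11.71 ± 0.24 in control-fed skin before SDS (SD, n = 3), and rose by 0.85 (SE 0.20). Among the other members that rose were Prc1 and Cenpf, at 1.01 each, Birc5, at 0.97, and Cdc20, an activator of the anaphase-promoting complex, at 0.96. Mcm6, a subunit of the replicative helicase, rose by 0.40. In control-fed skin after SDS, set against the same control-fed samples before SDS, the list's median was 0.33, and the fold changes were 0.95 for Aurka, 0.74 for Plk1, 0.68 for Bub1 and 0.37 for Mki67, of which the last did not pass. Both comparisons share the control-fed samples before SDS. The difference between the diets after SDS did not pass for any of these genes with all 4 arrays (Mki67 log2 difference 0.48 and Aurka 0.24, GC-fed minus control-fed). Without after-SDS array 4 it passed for Mki67 (0.73, limma adjusted p = 0.00734), Cenpe (0.57, adjusted p = 0.0203) and Aurka (0.41, adjusted p = 0.0369), and not for Bub1 (0.38, adjusted p = 0.0587) or Plk1 (0.37, adjusted p = 0.129).

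Promoters of the 4 mitotic genes described above are printed from RefSeq (GRCm38.p6), 250 bases before the annotated start to 50 after it, because mitotic genes are known for a CCAAT box followed by the element TTTGAA. Capitals mark CCAAT and TTTGAA on either strand, and no matches overlapped. Aurka lies at chr2:172370521-172370820 on the minus strand, Plk1 at chr7:122159185-122159484 on the plus strand, Bub1 at chr2:127831810-127832109 on the minus strand and Cenpe at chr3:135212313-135212612 on the plus strand.
Aurka: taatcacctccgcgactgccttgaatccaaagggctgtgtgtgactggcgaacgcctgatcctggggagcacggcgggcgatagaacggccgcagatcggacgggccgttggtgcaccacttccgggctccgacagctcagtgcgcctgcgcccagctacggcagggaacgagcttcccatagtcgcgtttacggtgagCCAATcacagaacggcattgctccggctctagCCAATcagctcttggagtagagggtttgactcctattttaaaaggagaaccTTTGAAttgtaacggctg
Plk1: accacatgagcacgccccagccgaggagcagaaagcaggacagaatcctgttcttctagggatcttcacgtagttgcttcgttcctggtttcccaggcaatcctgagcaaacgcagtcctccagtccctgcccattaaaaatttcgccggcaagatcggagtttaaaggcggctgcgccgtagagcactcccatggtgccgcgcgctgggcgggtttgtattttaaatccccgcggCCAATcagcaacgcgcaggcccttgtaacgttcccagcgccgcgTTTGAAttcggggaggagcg
Bub1: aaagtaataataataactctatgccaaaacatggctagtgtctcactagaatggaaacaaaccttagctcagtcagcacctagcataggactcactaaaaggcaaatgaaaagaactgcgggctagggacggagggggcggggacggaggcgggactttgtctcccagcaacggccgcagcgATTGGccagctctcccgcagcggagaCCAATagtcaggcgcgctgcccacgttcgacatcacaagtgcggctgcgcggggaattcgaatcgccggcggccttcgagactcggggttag
Cenpe: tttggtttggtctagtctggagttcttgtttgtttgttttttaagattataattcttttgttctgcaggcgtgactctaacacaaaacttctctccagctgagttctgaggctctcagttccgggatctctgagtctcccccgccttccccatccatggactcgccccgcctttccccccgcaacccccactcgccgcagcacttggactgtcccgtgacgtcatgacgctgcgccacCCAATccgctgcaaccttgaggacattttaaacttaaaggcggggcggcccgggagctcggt
Aurka had TTTGAA beginning 32 bases after the start and Plk1 30 bases after it, while Bub1 and Cenpe had CCAAT alone in this window. Of the 32 members that rose, 22 had a promoter in the table, and 11 of them held both motifs (50%), as did 18 of 40 measured members (45%) and 2284 of all 32851 promoters (6.95%). CCAAT, with or without TTTGAA, was present in 37.4% of all promoters, and TTTGAA in 17.9%. A match is a description of the letters and not a site.

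Hair follicle genes had the largest median of the gene lists, except with the scanner's processed signals, where the melanocyte list was higher (1.61, against 1.29). All 36 measured members lay above 0, 12 of them rose (33.3%, against 4.96% of all genes), 0 fell, and the median log2 fold change was 1.18. The list's median departure was 0.88, 1.12, 1.58 and 0.89 in GC-fed skin after SDS and -0.70, 0.98 and -0.18 in control-fed skin before SDS. The groups overlapped, because control-fed sample 2 lay above the lowest GC-fed samples. Without that sample 27 members rose and the median was 1.67, without sample 1 it was 0.55 with 0 members called, and without after-SDS array 4 it was 1.21 with 9 called. No member passed without before-SDS array 3, 2 did without after-SDS array 2, 3 without after-SDS array 3 and 3 with the replicate number as a block. The summed intensity of the list ran between 365053 and 614666 in GC-fed skin after SDS and between 104703 and 482460 in control-fed skin before SDS.

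Among keratins of the hair shaft, Krt35 had levels of 14.08, 14.43, 14.65 and 13.99 in GC-fed skin after SDS, against 11.68, 13.60 and 12.40 in control-fed skin before SDS. All GC-fed values were higher, and control-fed sample 2 came nearest to them. The log2 fold change was 1.76 (SE 0.41, limma adjusted p = 0.0231). Krt85 rose by 1.39 (SE 0.28), Krt33b by 1.46 (SE 0.40), Krt32 by 1.35 (SE 0.34) and Krt36 by 0.88 (SE 0.20). Krt31, of the hair shaft, and Krt25, of the inner root sheath, had fold changes of 1.44 (SE 0.47, limma adjusted p = 0.0705) and 1.19 (SE 0.49, adjusted p = 0.136) and did not pass. The keratin-associated protein genes Krtap2-4 and Krtap13-1, whose products fill the hair shaft between keratin filaments, rose by 1.56 (SE 0.44) and 1.51 (SE 0.44). Their adjusted p of 0.0430 and 0.0497 became 0.0505 and 0.0669 without after-SDS array 4. These families have close copies whose probes may share signal.

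Regulators of the follicle were also among the genes that rose. Lef1, the factor through which Wnt signals reach the hair matrix, was at 9.93, 10.66, 11.09 and 9.58 in GC-fed skin after SDS, against 8.61, 9.38 and 8.41 in control-fed skin before SDS. The groups did not overlap, and the fold change was 1.51 (SE 0.39, limma adjusted p = 0.0312). Shh, a growth signal of the follicle, was not well above background in any control-fed sample before SDS and was so in 3 of 4 GC-fed samples after SDS, which made it at least 1.68-fold higher. Hoxc13, which activates hair keratin genes, rose by 0.72 (SE 0.16), Msx2 by 1.19, Foxn1, the gene mutated in nude mice, by 0.66, and Fgf5, which ends the growth phase of hair, by 1.34 (SE 0.36). In control-fed skin after SDS the list's median against the same samples was 1.10, and Krt35 stood at 2.00, Lef1 at 1.5 and Fgf5 at 1.30. The diet difference after SDS had a list median of 0.02.

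**Figure D2:**
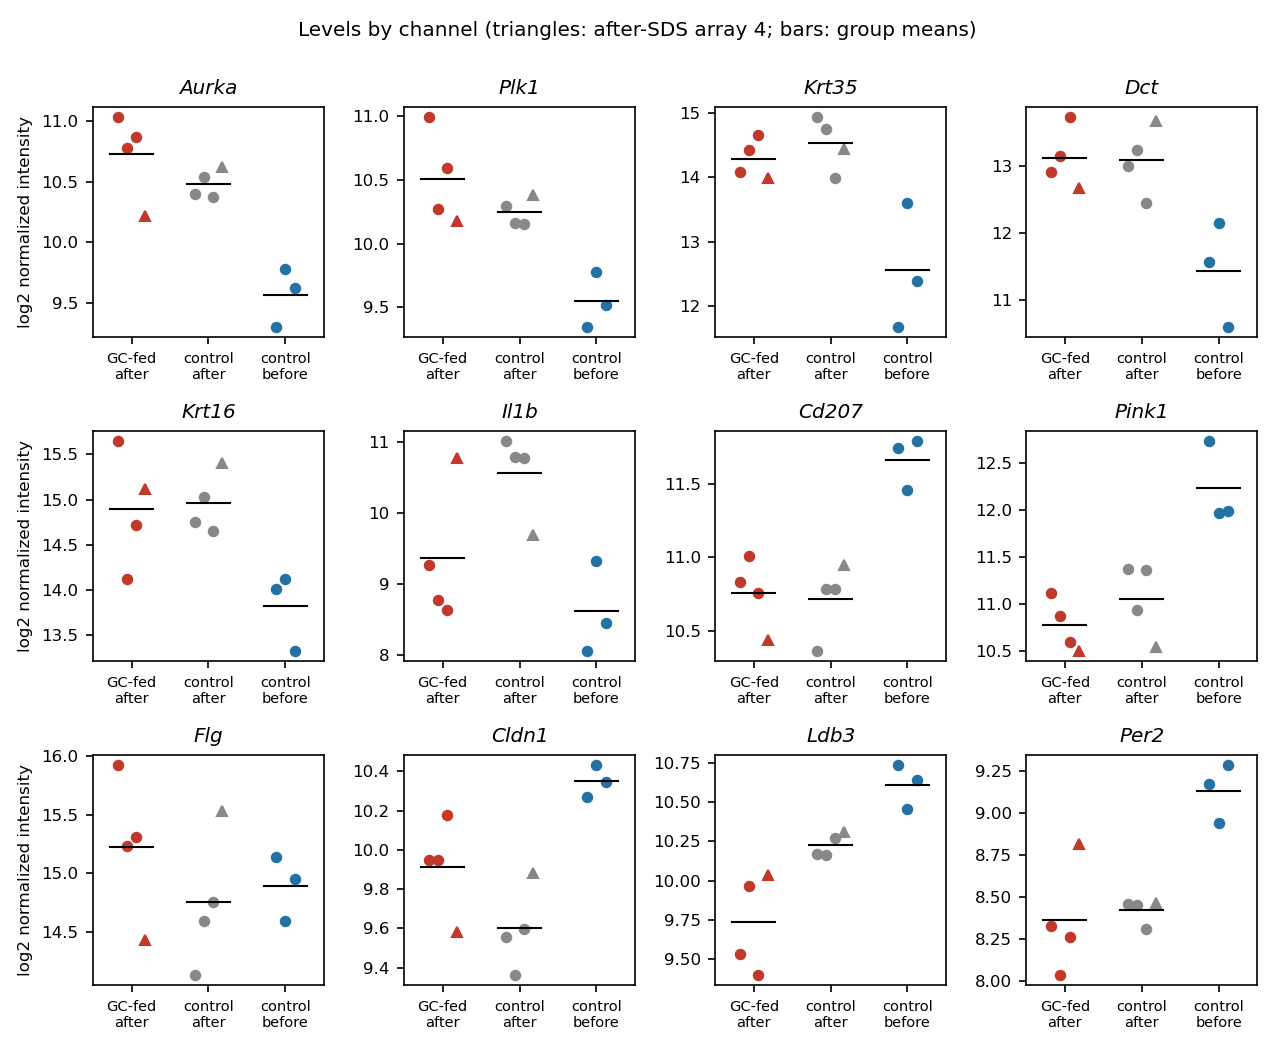
Log2 normalized intensity (y axis) of 12 genes by group: GC-fed skin after SDS (red, 4 samples), control-fed skin after SDS (grey, 4) and control-fed skin before SDS (blue, 3), with bars at group means and triangles for after-SDS array 4. Aurka, Plk1, Krt35 and Dct lay higher, and Cd207, Pink1, Ldb3 and Per2 lower, in every GC-fed sample after SDS than in every control-fed sample before SDS, while Il1b and Flg overlapped.

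Pigment genes were also higher. Of 11 melanocyte markers measured, 7 rose (63.6%, against 4.96%) and 0 fell, with a median of 0.68. The count was 0 without before-SDS array 1 or 3, 4 without before-SDS array 2, 2 without after-SDS array 2, 8 without after-SDS array 4 and 1 with the replicate number as a block, and the scanner's processed signals gave a median of 1.61. The list's median departure was 0.64, 0.58, 1.34 and 0.49 in GC-fed skin after SDS and 0.08, 0.06 and -0.11 in control-fed skin before SDS, with no overlap. Dct, an enzyme of melanin synthesis, was at 12.91, 13.14, 13.72 and 12.67 in GC-fed skin after SDS, against 11.56, 12.14 and 10.60 in control-fed skin before SDS. Every GC-fed value was higher, and the fold change was 1.66 (SE 0.37, limma adjusted p = 0.019). Tyrp1, which acts in the same pathway, rose by 1.23 (SE 0.31), and the transporter genes Slc45a2, Slc24a5 and Oca2 by 1.11, 1.06 and 0.68. Gpr143, a receptor of the melanosome, was above background in 2 of 4 GC-fed samples after SDS and in 0 of 3 control-fed samples before SDS, at least 1.27-fold higher.

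Mitf, the factor that governs the lineage, had a fold change of -0.21 (limma adjusted p = 0.669) and Sox10 one of -0.17 (adjusted p = 0.460), and neither passed. Kit, the receptor that melanocytes and mast cells share, rose by 0.32 (SE 0.08), and Pmel, a fibre protein of the melanosome, stood at 1.11 (adjusted p = 0.0522). Trpm1, a channel gene of melanocytes, was at 8.27, 8.67, 9.41 and 7.58 in GC-fed skin after SDS and at 6.88, 7.52 and 6.43 in control-fed skin before SDS, a fold change of 1.53 (SE 0.41, adjusted p = 0.0367), with a narrow gap between the groups. Dct was at 1.64 and Trpm1 at 1.62 in control-fed skin after SDS against the same control samples.

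Pigment genes are known to carry the element CATGTG, which the factor Mitf reads, and the promoters of Dct and Trpm1 are shown with it in capitals on either strand. Dct lies at chr14:118052197-118052496 on the minus strand and Trpm1 at chr7:64153585-64153884 on the plus strand, by the first of its 2 starts in the table.
Dct: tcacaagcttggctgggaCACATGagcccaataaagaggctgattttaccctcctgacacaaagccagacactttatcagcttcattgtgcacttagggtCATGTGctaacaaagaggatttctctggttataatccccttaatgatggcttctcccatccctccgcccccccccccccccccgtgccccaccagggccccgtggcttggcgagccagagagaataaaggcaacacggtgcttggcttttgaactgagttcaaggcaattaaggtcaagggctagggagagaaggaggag
Trpm1: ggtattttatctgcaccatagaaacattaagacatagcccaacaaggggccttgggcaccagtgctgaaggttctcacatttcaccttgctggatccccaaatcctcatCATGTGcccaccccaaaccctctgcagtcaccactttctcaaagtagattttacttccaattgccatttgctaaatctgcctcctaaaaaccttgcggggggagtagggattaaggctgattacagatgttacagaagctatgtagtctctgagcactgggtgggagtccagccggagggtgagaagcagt
CATGTG began at positions -232, on the opposite strand, and -150 from the start of Dct and at -141 from that of Trpm1. Of the 7 pigment genes that rose, 5 had a promoter in the table and 4 of these held the element (80%). So did 4 of 6 measured members of the list (66.7%) and 14.2% of all promoters. Nothing about Mitf follows from the letters.

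**Figure D3:**
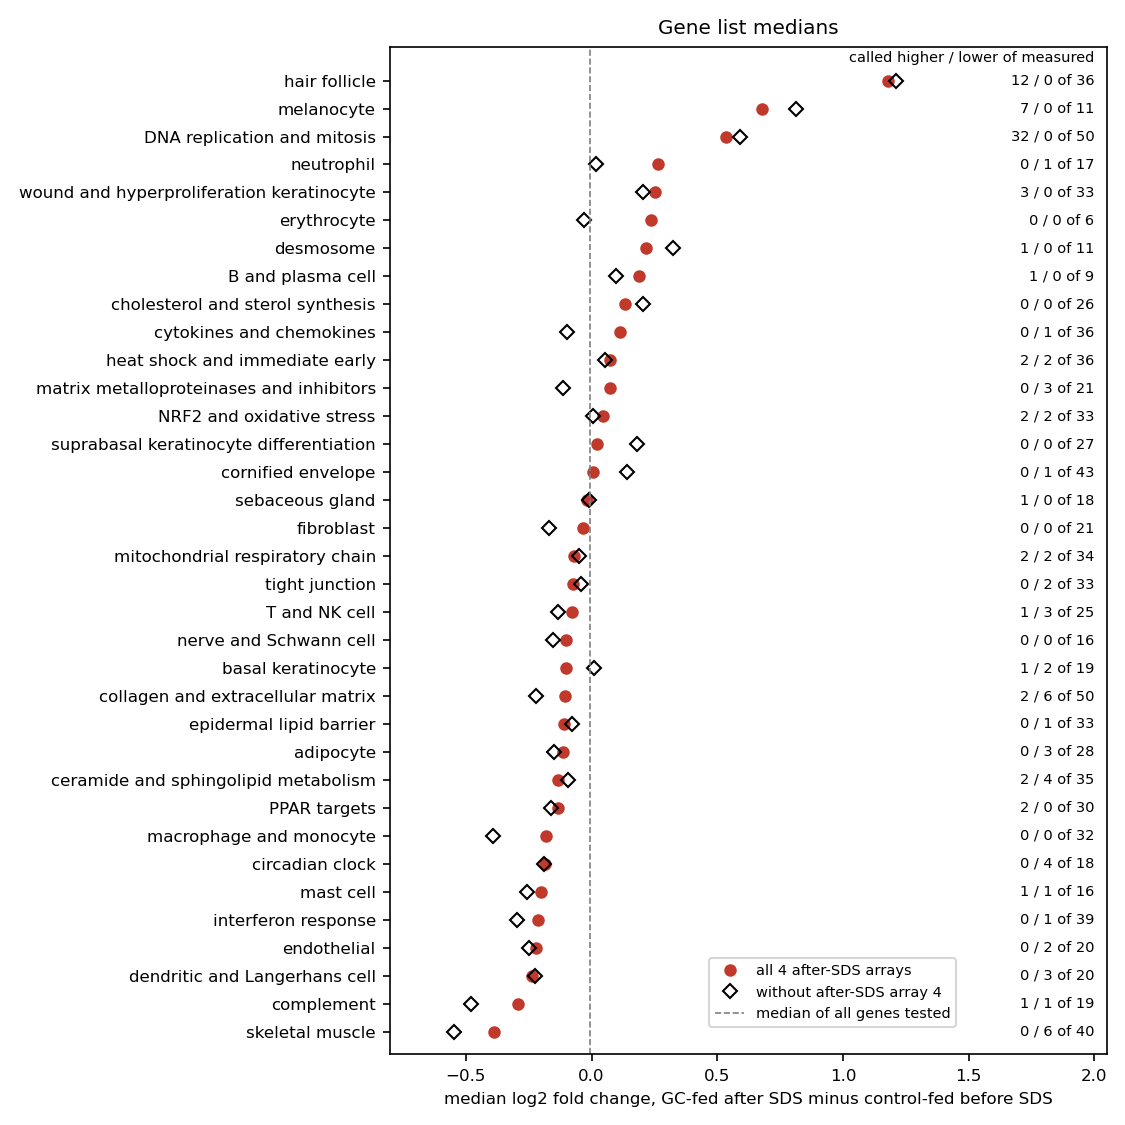
Median log2 fold change of each gene list (x axis, GC-fed after SDS minus control-fed before SDS) with all after-SDS arrays (red circles) and without after-SDS array 4 (open diamonds), beside the count of members called higher and lower of those measured. Hair follicle, melanocyte and DNA replication lists lay furthest above the median of all genes (dashed line) and skeletal muscle furthest below it.

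Of 33 genes of the wounded or dividing keratinocyte, 3 rose (9.09%, against 4.96%) and 0 fell, with a median of 0.25. None rose with processed signals, with median scaling, without the filter on dim probes or with the replicate block. Krt16, a keratin of stressed epidermis, was at 15.64, 14.12, 14.72 and 15.11 in GC-fed skin after SDS, against 14.02, 14.12 and 13.33 in control-fed skin before SDS. GC-fed sample 2 stood level with the highest control-fed sample, and the fold change was 1.07 (SE 0.31, limma adjusted p = 0.0476, and 0.0646 without after-SDS array 4). The EGF receptor ligand genes Areg and Tgfa rose by 0.60 (SE 0.16) and 0.48 (SE 0.14), with no overlap between the groups. Krt6b, another stress keratin, had a fold change of 0.75 (SE 0.29) and did not pass (adjusted p = 0.109).

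In the basal layer, 1 of 19 measured genes rose (5.26%, against 4.96% of all genes) and 2 fell (10.5%, against 5.05%). Cdh3, the P-cadherin gene, rose by 0.70 (SE 0.15), and Lamb3, a laminin chain of the basement membrane, fell by 0.54 (SE 0.13). Dst, which anchors keratin to the basement membrane, fell by 1.11 (SE 0.22) by 1 probe, while the highest of its 4 probes gave 0.02. Dsc2, a desmosomal cadherin, rose by 0.48 (SE 0.14). Krt14 was at 17.11, 16.39, 16.74 and 16.51 in GC-fed skin after SDS and 16.83, 16.49 and 16.28 in control-fed skin before SDS, with a fold change of 0.13 (SE 0.18).

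The lists of the barrier itself stood near the median of all genes. Of 43 cornified envelope genes, 0 rose and 1 fell (2.33%, against 5.05% of all genes), with a median of 0.01. Of 27 suprabasal differentiation genes 0 passed, with a median of 0.02. Flg, the gene of filaggrin, was at 15.92, 15.23, 15.31 and 14.43 in GC-fed skin after SDS, against 15.14, 14.60 and 14.95 in control-fed skin before SDS. The groups overlapped through array 4, and the fold change was 0.38 (SE 0.32, limma adjusted p = 0.478). Lor, Ivl, Tgm1 and Krt10 had fold changes of 0.42 (SE 0.36), -0.38 (SE 0.24), -0.03 (SE 0.18) and 0.52 (SE 0.43), and none passed. Ppl, the gene of periplakin, which links the envelope to keratin, fell by 0.69 (SE 0.19, adjusted p = 0.0378).

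A p that misses the threshold does not show equal levels, and these genes varied between the after-SDS arrays. The median departure of the suprabasal list was 0.32, -0.02, 0.12 and -0.62 in GC-fed skin after SDS and 0.15, -0.15 and -0.05 in control-fed skin before SDS. Array 4 was the only GC-fed sample below every control-fed sample. Without it the suprabasal median was 0.18 and that of the cornified envelope 0.14, and Gata3, a factor of keratinocyte differentiation, rose by 0.83 (adjusted p = 0.0149) where it stood at 0.58 (adjusted p = 0.175) with it. In control-fed skin after SDS the medians against the same control samples were -0.49 and -0.27. The suprabasal list's median departure there was -0.81, -0.65, -0.46 and -0.03, the last on array 4, so both diets' values varied with that array. Sprr1b, an envelope precursor, was at 1.03 (SE 0.37), Scel, a further envelope protein, at -0.63 (SE 0.21), Casp14, a protease of cornification, at -0.56 (SE 0.26) and Klk7, a protease of shedding, at 0.27 (SE 0.14), and none of the 4 passed.

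Of 33 tight junction genes measured, 0 were higher and 2 lower (6.06%, against 5.05% of all genes), with a median of -0.07. The claudin genes Cldn15 and Cldn23 fell by 0.43 (SE 0.11) and 0.61 (SE 0.18). Without after-SDS array 4, 2 genes of the list were higher and 1 lower, and Cldn23 did not pass (-0.47, limma adjusted p = 0.0693). With any 1 array left out 0 or 1 were lower, and with the replicate number as a block 0. Cldn1, the main claudin of the epidermal barrier, was at 9.95, 9.95, 10.18 and 9.58 in GC-fed skin after SDS, against 10.27, 10.43 and 10.35 in control-fed skin before SDS. Every GC-fed value was lower, but the gene did not pass (log2 fold change -0.41, SE 0.14, limma adjusted p = 0.077), and its second probe gave 0.08. Cldn1 in control-fed skin after SDS was at -0.72 (adjusted p = 0.00708) against the same control samples. Ocln, the gene of occludin, had a fold change of -0.00 (SE 0.14).

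Of 35 ceramide and sphingolipid genes, 2 rose (5.71%, against 4.96% of all genes) and 4 fell (11.4%, against 5.05%), with a median of -0.13. Cers5, a ceramide synthase, was at 12.67, 12.47, 12.39 and 11.92 in GC-fed skin after SDS, against 12.88, 13.05 and 12.93 in control-fed skin before SDS. No GC-fed value reached a control-fed value, and it fell by 0.55 (SE 0.13, limma adjusted p = 0.0256). Cerk, which phosphorylates ceramide, fell by 0.62 (SE 0.12) and the ceramidase gene Acer2 by 0.66 (SE 0.15), although other probes of these genes gave 0.13 and 0.16. Acer3, another ceramidase, rose by 0.32 (SE 0.08), and Sptssb, a small subunit of the first enzyme of ceramide synthesis, by 1.04. Ugcg, the glucosylceramide synthase, had a fold change of 0.14 (SE 0.08) and did not pass.

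Among 33 genes of epidermal lipids, 0 rose and 1 fell (3.03%, against 5.05% of all genes), with a median of -0.11. Alox12b, a lipoxygenase that processes the acylceramides of the lipid envelope, was at 9.53, 9.34, 9.40 and 8.84 in GC-fed skin after SDS, against 10.21, 9.75 and 9.98 in control-fed skin before SDS. The groups did not overlap, and it fell by 0.68 (SE 0.16, limma adjusted p = 0.0242). Elovl1 and Elovl4, elongases of the long acyl chains, had fold changes of -0.41 (SE 0.13, adjusted p = 0.060) and -0.12 (SE 0.21), Fads2, a desaturase, one of 0.55 (SE 0.17, adjusted p = 0.0545), and Abca12, the lipid transporter of lamellar granules, one of -0.01 (SE 0.24). In control-fed skin after SDS Elovl1 was at -0.77 (adjusted p = 0.00412) and the list's median at -0.44 against the same control samples. The list's median departure there was -0.61, -0.55, -0.34 and -0.08, the last on array 4. Cholesterol synthesis had 0 of 26 genes called and a median of 0.13, and without after-SDS array 4 there were 3 that rose and the median was 0.20. Of 30 PPAR targets, 22 lay below 0, the median was -0.13, 2 rose (6.67%, against 4.96%) and 0 fell. Acaa1a and Acaa1b, peroxisomal thiolases with near-identical sequences, rose by 0.32 (SE 0.08) and 0.36 (SE 0.10). Without after-SDS array 4, 1 PPAR target rose and 2 fell, and Acaa1b did not pass (0.35, limma adjusted p = 0.0598).

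Some markers of antigen-presenting cells fell. Of 20 dendritic and Langerhans cell genes, 3 fell (15%, against 5.05%) and 0 rose, 8 lay above 0, and the median was -0.24. With 1 array left out the count was 0 to 4. Cd207, the gene of langerin and the defining marker of Langerhans cells, was at 10.83, 11.01, 10.75 and 10.44 in GC-fed skin after SDS, against 11.74, 11.46 and 11.79 in control-fed skin before SDS. All GC-fed values were lower, and it fell by 0.88 (SE 0.15, limma adjusted p = 0.00744). The class II genes H2-Ab1 and Cd74 fell by 0.83 (SE 0.18) and 0.61 (SE 0.18), and H2-Aa, at -0.91 (SE 0.30), did not pass (adjusted p = 0.0682). Control-fed skin after SDS had Cd207 at -0.92 and H2-Ab1 at -0.70 against the same control samples. The summed intensity of the list was 40382 to 58021 in GC-fed skin after SDS and 59539 to 87393 in control-fed skin before SDS.

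Ccl27a, a chemokine that keratinocytes make to draw T cells, was at 12.47, 12.29, 12.50 and 12.49 in GC-fed skin after SDS, against 13.18, 13.01 and 13.37 in control-fed skin before SDS. It fell by 0.77 (SE 0.14, limma adjusted p = 0.00881) with no overlap. It was the only 1 of 36 cytokine and chemokine genes that passed (2.78%, against 5.05% of all genes). Without after-SDS array 4, 5 of the 36 fell, where 7.81% of all genes did. Of 25 T and NK cell genes, 3 fell (12%, against 5.05%) and 1 rose (4%, against 4.96%). Cd3e and Zap70, of T cell receptor signalling, fell by 0.49 and 0.39, and Icos, a costimulator, rose by 0.59. Icos did not pass without after-SDS array 4 (0.52, limma adjusted p = 0.0602). Of 17 neutrophil markers 14 lay above 0, with a median of 0.26, or 0.02 without after-SDS array 4. The list's median departure was 0.13, 0.05, -0.17 and 1.17 in GC-fed skin after SDS, the last on array 4. In control-fed skin before SDS it was -0.13, 0.21 and -0.13. The only 1 that passed (5.88%, against 5.05%) was Il1r2, a decoy receptor of interleukin 1, which fell by 0.87 (SE 0.19). Cpa3, a mast cell protease, fell by 0.64 (SE 0.18). Jchain, of plasma cells, rose by 0.93 (SE 0.27, limma adjusted p = 0.0450). Its level was highest on after-SDS array 4, at 9.45, and without that array it rose by 0.68 (adjusted p = 0.0257). It was the only 1 of 9 B and plasma cell genes that passed. With the replicate block or without the filter on dim probes 0 did. Tap1, a peptide transporter induced by interferon, fell by 0.68 (SE 0.16).

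Il1b, the gene of interleukin 1 beta, was at 9.27, 8.78, 8.63 and 10.76 in GC-fed skin after SDS, against 8.07, 9.33 and 8.46 in control-fed skin before SDS. Array 4 alone lay above every control-fed sample, and the fold change was 0.72 (SE 0.52, limma adjusted p = 0.396), or 0.27 without that array. In control-fed skin after SDS it was at 1.92 (SE 0.52, adjusted p = 0.028) against the same control samples. The cytokine list's median departure was -0.03, -0.14, -0.11 and 0.76 in GC-fed skin after SDS, and that of macrophage genes -0.41, -0.27, -0.46 and 0.60, where control-fed skin before SDS had -0.11, 0.05 and -0.04 for cytokines and -0.20, -0.03 and 0.17 for macrophages. On both lists array 4 was the highest of the 4 and the other 3 lay below 0. Of 32 macrophage genes 0 passed, and without array 4 there were 9 that fell, where 7.81% of all genes did.

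**Figure D4:**
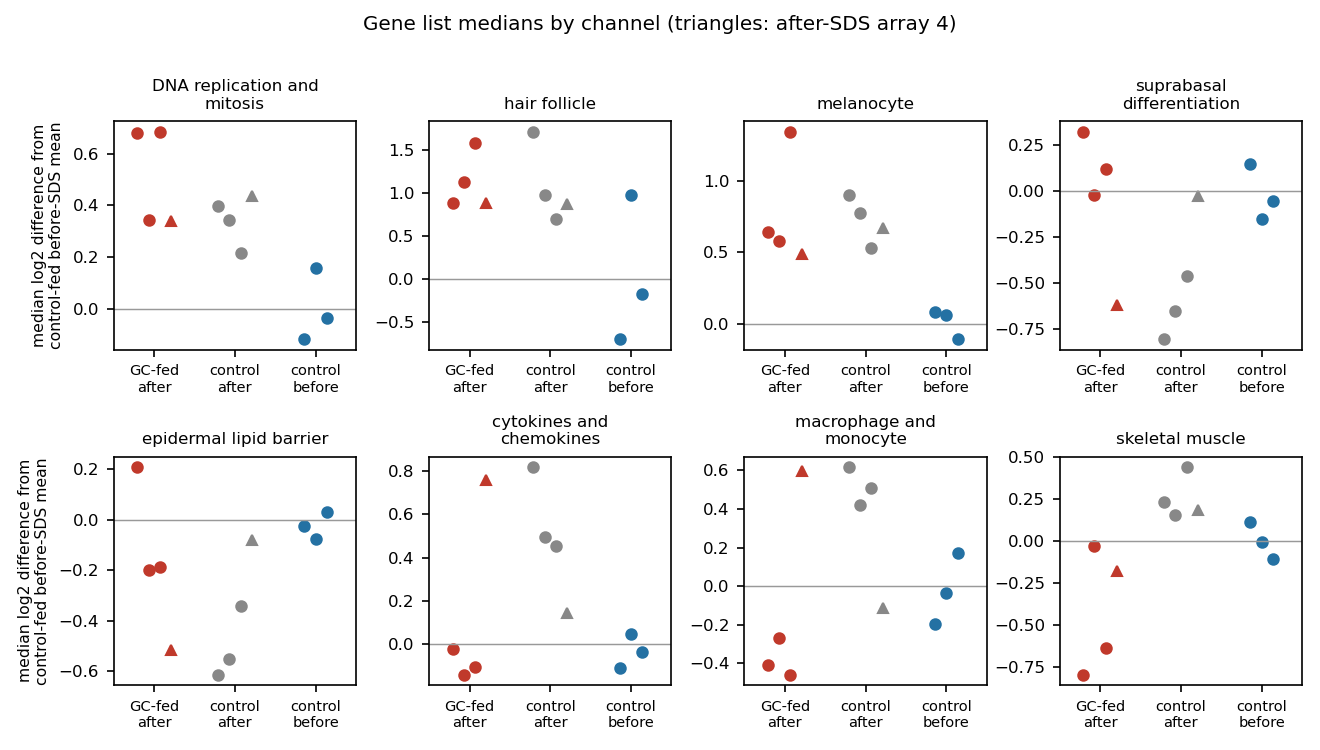
Median log2 difference of a list's genes from the mean of control-fed skin before SDS (y axis), for 8 lists in GC-fed skin after SDS (red), control-fed skin after SDS (grey) and control-fed skin before SDS (blue), 1 point a sample, with triangles for after-SDS array 4. In the suprabasal, cytokine and macrophage lists the red triangle lies apart from the 3 red circles, while on the DNA replication list all 4 red points lie above the blue ones.

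In the dermis, 6 of 50 collagen and matrix genes fell (12.0%, against 5.05%) and 2 rose (4%, against 4.96%), with a median of -0.10. Eln, the gene of elastin, was at 9.08, 8.76, 8.56 and 8.98 in GC-fed skin after SDS, against 9.41, 9.31 and 9.54 in control-fed skin before SDS, and fell by 0.57 (SE 0.12, limma adjusted p = 0.0175). The groups did not overlap. Ogn and Prelp, small leucine-rich proteins of matrix, fell by 0.62 (SE 0.13) and 0.56 (SE 0.14), Lox, which cross-links collagen and elastin, by 0.63, Col5a2 by 0.64 and Fmod by 0.47. Plod2, a collagen lysyl hydroxylase, rose by 0.87 (SE 0.19) and Thbs1, a matrix glycoprotein, by 0.80. Of 21 matrix protease and inhibitor genes 3 fell (14.3%, against 5.05%) and 0 rose, namely Mmp2, by 0.69 (SE 0.14), Timp3, by 0.52 (SE 0.09), and Mmp23, by 0.37 (SE 0.11). Without after-SDS array 4, 17 collagen and matrix genes fell, where 7.81% of all genes did. The count was 1 without after-SDS array 3, 2 without before-SDS array 2 and 0 without before-SDS array 1 or 3.

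Clock genes were lower where they passed. Of 18 measured, 4 fell (22.2%, against 5.05%) and 0 rose, with a median of -0.19. Per2, a repressor of the clock, was at 8.33, 8.04, 8.26 and 8.81 in GC-fed skin after SDS, against 9.18, 8.94 and 9.28 in control-fed skin before SDS. It fell by 0.81 (SE 0.14, limma adjusted p = 0.00775) with no overlap, by the brighter of 2 probes, while the other gave -0.16. Tef and Hlf, transcription factors under the clock, fell by 0.65 (SE 0.11) and 0.50 (SE 0.15). The labels used here give no hour of sampling, and whether it differed between the groups was not tested.

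Skeletal muscle had a list median of -0.39, with 6 of 40 genes lower (15%, against 5.05%) and 0 higher. With 1 array left out the count was 0 to 13, the highest without after-SDS array 2. Ldb3, a protein of the muscle Z-disc, was at 9.53, 9.96, 9.40 and 10.04 in GC-fed skin after SDS, against 10.73, 10.46 and 10.64 in control-fed skin before SDS. It fell by 0.88 (SE 0.15, limma adjusted p = 0.00756) with no overlap. Myot, Actn2, Mb, Myl3 and Pgam2, of the sarcomere and of muscle oxygen and sugar use, fell by 0.89, 0.93, 0.79, 0.91 and 0.84, and Csrp3, a muscle LIM protein outside the list, by 1.32 (SE 0.24). Acta1, the actin of skeletal muscle, was at -0.68 (SE 0.25) and did not pass (adjusted p = 0.0969). The list's summed intensity was 458488 to 795063 in GC-fed skin after SDS and 731034 to 960074 in control-fed skin before SDS, and how much muscle each sample held was not tested. Of 28 adipocyte genes, 3 fell (10.7%, against 5.05%) and 0 rose. With 1 array left out 0 to 3 fell, and with processed signals or the replicate number as a block 0 did. The lipases Lipe and Pnpla2 fell by 0.48 and 0.40, and Tshz2 by 0.44. Lep, the gene of leptin, had a fold change of 0.03 (SE 0.24), where control-fed skin after SDS had 0.89 against the same control samples.

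Of 33 NRF2 and oxidative stress genes, 2 rose and 2 fell (6.06% each, against 4.96% and 5.05% of all genes). Of 36 heat shock and immediate early genes, 2 rose and 2 fell (5.56% each). With all 4 after-SDS arrays both lists thus stood near the shares of all genes. Without after-SDS array 4, 2 of the 33 NRF2 genes rose and 6 fell, where 7.39% and 7.81% of all genes did. Nqo1, a target of NRF2 that detoxifies quinones, was at 10.05, 10.31, 10.31 and 10.01 in GC-fed skin after SDS, against 9.64, 9.62 and 9.60 in control-fed skin before SDS. The groups stood well apart, and it rose by 0.54 (SE 0.09, limma adjusted p = 0.00713). Cbr3, a carbonyl reductase, rose by 0.47 (SE 0.12), while Gpx3, a secreted glutathione peroxidase, fell by 0.91 (SE 0.22) and Prdx6, a peroxiredoxin, by 0.51 (SE 0.12). The chaperone genes Hspb1 and Hspa8 fell by 0.51 each (SE 0.11 and 0.10), and Myc and Jund, early response factors, rose by 0.47 (SE 0.08) and 0.34 (SE 0.10). Of 34 respiratory chain genes, 2 rose and 2 fell (5.88% each), also near the shares of all genes. The complex I genes Ndufa9 and Ndufv2 rose by 0.33 and 0.27, and Ndufs1 and Ndufs3, of the same complex, fell by 0.33 and 0.31.

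The largest rises outside the lists included Sct, the gene of secretin, at 1.81 (SE 0.44), Ly6g6d at 1.54 (SE 0.40), Fbp1, of gluconeogenesis, at 1.40 (SE 0.36), and Bhlha9 at 1.30 (SE 0.29). Sct was at 10.82, 11.46, 11.99 and 10.87 in GC-fed skin after SDS, against 8.78, 10.49 and 9.18 in control-fed skin before SDS, so that control-fed sample 2 came nearest, as it did for the hair keratins. Slc4a7, a bicarbonate transporter gene with 1 probe, had the largest fold change, 4.5 (SE 1.14, limma adjusted p = 0.0299), at 12.56, 16.32, 14.22 and 11.42 in GC-fed skin after SDS against 8.46, 8.58 and 10.50 in control-fed skin before SDS. Its control-fed partners on the after-SDS arrays were at 12.25, 15.47, 14.81 and 11.33, so that both samples of an array stood close together while the arrays differed widely. Of 19 complement genes, 1 rose and 1 fell (5.26% each, against 4.96% and 5.05%), 17 lay below 0, and the median was -0.29. Without after-SDS array 4 the complement median was -0.48 and 7 fell, where 7.81% of all genes did. Masp1, of the lectin pathway of complement, went the other way and rose by 0.75 (SE 0.14), with its other probe at 0.03. Soat1, which esterifies cholesterol in sebocytes, rose by 0.63 (SE 0.16).

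Among the largest falls, Pink1, a kinase that marks damaged mitochondria, was at 11.12, 10.88, 10.59 and 10.51 in GC-fed skin after SDS, against 12.73, 11.96 and 11.99 in control-fed skin before SDS. The groups did not overlap, and it fell by 1.46 (SE 0.24, limma adjusted p = 0.00713). C7, a component of the complement attack complex, fell by 1.44 (SE 0.28), Cthrc1, a secreted collagen repeat protein, by 1.40 (SE 0.32), and Sfrp4, a Wnt inhibitor, by 1.22 (SE 0.21). Neu2, a sialidase, fell by 1.17 (SE 0.26), Txnip, an inhibitor of thioredoxin that responds to glucose, by 1.13 (SE 0.22), Retnla, a product of alternatively activated macrophages, by 1.12 (SE 0.29), Glt8d2 by 1.10 (SE 0.26), and Smim18 by 1.17 (SE 0.18), although only 1 of its 4 GC-fed values was well above background.

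Several genes with large falls had probes that disagreed. Fbxo2 fell by 1.32 (SE 0.16), H1f10 by 1.32 (SE 0.34), Srrm4 by 1.51 (SE 0.24) and Tfam, a mitochondrial transcription factor, by 1.18 (SE 0.22), while another probe of these genes gave 0.08, 0.07, -0.04 and -0.12. Endothelial genes Vwf and Cdh5 fell by 0.59 (SE 0.14) and 0.40 (SE 0.11), with both probes of each gene lower.

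The same fit tested whether diet moved the distance from control-fed skin before SDS, as the difference between GC-fed and control-fed skin after SDS. With all 4 arrays, 0 genes passed (limma, lowest adjusted p = 0.128), and 1632 had an unadjusted p under 0.05. Of the 1709 genes called against control-fed skin before SDS, 167 had such a p (9.77%), against 9.56% of all genes. Both tests used the GC-fed samples after SDS, so their p-values are not independent and nothing is concluded from this share. Without after-SDS array 4, 2863 genes passed, 1205 higher and 1658 lower in GC-fed skin. Control-fed skin after SDS had 2748 genes called against control-fed skin before SDS (16.1%), 1303 higher and 1445 lower. It shares those control samples with the main comparison, so the 2 counts are not independent, and no test compared them.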

How the data were processed

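Total RNA of dorsal skin was labelled and hybridised to 7 two-colour Agilent arrays, each with a GC-fed and a control-fed sample in opposite dyes. Per the file headers, the deposited scanner files hold spot and local background intensity in both channels, a processed intensity and other values, the flags of Agilent's Feature Extraction software. The authors also deposited a gene-level table of intensity with values under 200 set to 200, per its header, which served as an alternative.

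From the mean and background intensities, limma 3.58.1 in R 4.3.3 corrected the background by normexp with an offset of 50, normalized within arrays by loess with control spots at weight 0, and between arrays by Aquantile. On 3 arrays, 3, 17 and 6 spots had a background above their signal, with differences down to -64151, which spoiled the fit of normexp on all spots. They were left out and set missing, a step chosen after seeing the data, with the fit on all spots as an added alternative.

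The filter on dim probes asked for any 3 of the 14 channels well above background and was passed by 25177 probes, of which 67 with flagged or missing spots were left out, and the brightest probe stood for each of 17080 genes. Of 41174 probes, 22951 were named by accession, 6659 by a current symbol and 3109 by an older symbol, and 8455 kept the file's name. A separate-channel fit (lmscFit, eBayes) held the 4 groups and a dye term, with a correlation within spots of 0.054. The log2 levels and fold changes were computed from the deposited intensities.

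Genes named were the 15 largest rises and the 15 largest falls among called genes with ordinary symbols whose groups did not overlap, up to 4 called members of each list by p, up to 3 members of each barrier list whether or not they passed, and a set of barrier and marker genes named always. Some genes within this rule are not reported here. Further list members were named after their values were seen. The members and lists were chosen with earlier results of these data known. A bound on a fold takes the dim group at the lowest signal well above background on each array. The procedure was tested on simulated data. Figures were drawn with matplotlib 3.10.9 under Python 3.11.15.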

Additional observations from a re-analysis of the deposited data

Results flagged for a closer look

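Among 189 sets of 4 GC-fed samples after SDS that were examined, 11 held a sample far from the other 3 by Dixon's test, and chance flags about 1 in 20 such sets. After-SDS array 4 gave 5 of them. Its cytokine and chemokine median was 0.76 where the others lay between -0.14 and -0.03, its erythrocyte median was 1.01 where they lay between -0.06 and 0.06, and its NRF2 median was 0.16 where they lay between -0.08 and -0.04. Its level of Scel was 9.33 (the others 10.14 to 10.26) and its level of Prc1 10.45 (11.16 to 11.29). After-SDS array 3 had Krtap2-4 at 11.65 (10.66 to 10.73), Mmp2 at 12.49 (13.16 to 13.25), Acaa1b at 11.65 (each of the others at 11.70) and a T and NK cell median of -0.19 (-0.04 to -0.03). After-SDS array 2 had Ccl27a at 12.29 (12.47 to 12.50), and after-SDS array 1 had Lox at 10.13 (10.95 to 11.06).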

How the results depend on the processing

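The count of called genes, 1709 (847 higher and 862 lower), depended on the samples and on the scaling. Leaving out 1 array gave 6 to 2596 calls, 0 to 1262 higher and 6 to 1334 lower, with 6 without before-SDS array 1, 856 without before-SDS array 2, 326 without before-SDS array 3, 544 without after-SDS array 3 and 2596 without after-SDS array 4. Median scaling gave 2595 (462 and 2133) and moved the median of all genes to -0.10, and no normalization between arrays gave 4778 (74 and 4704) and moved it to -0.26. A fit of the 7 compared samples alone gave 0, higher and lower alike, with 3855 genes at an unadjusted p under 0.05 in limma. The authors' deposited table, fitted in the same way, gave 791 (405 and 386), exchanging the diets of after-SDS array 4 gave 3202 (1566 and 1636), the scanner's processed signals gave 573 lower, and no filter on dim probes gave 563 higher. The normexp fit on all spots, added after seeing the data, gave 1778 (816 and 962).

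Whether the replicate numbers pair the samples could not be decided. Same-numbered samples deviated from their group means with r = -0.06, -0.18 and -0.39, and different-numbered samples with r from -0.13 to 0.18. Deviations within such small groups offset each other, so these correlations do not answer the question. With the replicate number as a block, using the correlation within spots of the fit without it, 656 genes were called (296 and 360), and 1523 for control-fed skin after SDS against control-fed skin before SDS.

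The diet difference after SDS had 8 calls without normalization between arrays, 1 without the filter, 3163 with array 4 exchanged and 0 to 2863 with 1 array left out. Control-fed skin after SDS against control-fed skin before SDS had 5185, 4333 with array 4 exchanged, 1555 in the deposited table and 58 to 3695 with 1 array left out, where the first is without normalization between arrays.

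Of 123 called genes followed singly, 1 passed without before-SDS array 1, 81 without before-SDS array 2, 29 without before-SDS array 3 and 112 without after-SDS array 4. Without normalization between arrays the log2 fold change of Acer3 was -0.015 and the log2 fold change of Ugcg was -0.14. The other reversals were in genes near 0 that did not pass. The log2 fold change of Lep was -0.13 with median scaling, -0.29 without normalization, -0.0071 without the dye term, -0.0026 with the 7 samples and -0.0028 in the deposited table. The log2 fold change of Ocln was 0.014 with processed signals, 0.0061 with quantile normalization, 0.0063 without the dye term, 0.021 with the 7 samples, 0.027 with array 4 exchanged, 0.082 with the block and 0.055 in the deposited table. The log2 fold change of Abca12 was 0.12 with array 4 exchanged and 0.014 with the block. The log2 fold change of Tgm1 was 0.054 with processed signals, 0.074 with array 4 exchanged, 0.021 with the block and 0.035 in the deposited table. With 1 array left out, the log2 fold change of Krt14 spanned -0.090 to 0.32, the range was -0.069 to 0.14 for Lep, -0.10 to 0.14 for Ocln, -0.16 to 0.34 for Abca12, -0.15 to 0.15 for Tgm1 and -0.33 to 0.11 for Elovl4. The cause of these changes was not tested.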

Other observations

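The genes in this section were chosen after their values were seen. Twsg1, a secreted modulator of BMP signals, had the lowest adjusted p of all genes. It was at 9.59, 9.71, 9.81 and 9.80 in GC-fed skin after SDS, against 10.84, 10.62 and 10.62 in control-fed skin before SDS, and fell by 1.00 (SE 0.07, limma adjusted p = 3.48e-05), with its second probe at -0.18. Nrap, of the muscle sarcomere, fell by 1.05 (SE 0.11, limma adjusted p = 0.00255), and Ddit3, a factor of the unfolded protein response, fell by 0.73 (SE 0.09, limma adjusted p = 0.00352). Kif22, a mitotic kinesin, rose by 1.17 (SE 0.13, limma adjusted p = 0.00266).

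Some large differences did not pass, and the samples of a group lay far apart in them. Ifi27l2a, an interferon-induced gene, was at 12.71, 14.33, 9.68 and 9.16 in GC-fed skin after SDS, against 13.88, 14.37 and 14.64 in control-fed skin before SDS (log2 fold change -2.60, SE 0.77, limma adjusted p = 0.0506). Rab32, which serves traffic to melanosomes, was at 9.57, 10.48, 10.41 and 11.22 in GC-fed skin after SDS and 9.56, 6.63 and 6.69 in control-fed skin before SDS (2.66, SE 0.91, limma adjusted p = 0.0780). C4b, of complement, was at 9.74, 13.70, 12.18 and 10.15 in GC-fed skin after SDS and 12.94, 13.14 and 13.62 in control-fed skin before SDS (-1.75, SE 1.14, limma adjusted p = 0.340).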
